A study of Mus musculus with 6 samples.

Results

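The genes described here are 31 regulators and targets of the tumour suppressor p53, listed by symbol with the BCL2 family, the death receptors and Cdkn1a left out. All 31 were found among the 24421 genes of the count table, and all 31 passed the filter on low counts that left 13411 genes for testing. RNA came from Lin-CD117+ cells of bone marrow, which lack lineage antigens, carry the KIT receptor and include blood stem and progenitor cells. The tested group was 3 pools of cells (RUX pools 4 to 6) from CByB6F1 mice given ruxolitinib, abbreviated RUX, a drug that blocks the kinases JAK1 and JAK2. They were compared with 3 pools (1 to 3) from untreated CByB6F1 mice. All mice were labelled female and 2 to 5 months old, and each pool joined cells of 2 to 3 mice of its group. Neither the dose nor the length of treatment is given in the sources used here.

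The p53 protein, encoded by Trp53, is a transcription factor that is kept scarce by the ubiquitin ligase MDM2 and restrained by its relative MDM4. DNA damage and other stresses release p53 from this control, and it then induces genes for growth arrest, DNA repair, metabolic adjustment and cell death. MDM2 is itself a p53 target, which closes a feedback loop. In blood stem and progenitor cells this pathway is known for setting the response to irradiation and genotoxic drugs and for holding stem cells in quiescence. Because p53 is regulated mainly at the protein level, its messenger RNA is not a measure of its activity.

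Libraries held 46027491 to 48747137 counted read pairs in RUX pools and 27354768 to 38691826 in untreated pools. Kit, the gene of the sorted receptor, measured 295, 412 and 416 CPM (read pairs scaled to a common library size) in RUX pools and 409, 471 and 196 CPM in untreated pools 1, 2 and 3. RUX pool 4 and untreated pool 3 stood apart from the rest on the first principal component (39.7% of the variance), at 19.4 and 24.1, against −16.5 to −3.04 in the other 4 pools. Summed levels of 7 eosinophil genes were 241 and 248 CPM in these 2 pools and 50.2 to 104 CPM in the others. Prg2 alone gave 207 and 214 CPM of the sums in these 2 pools. Their sums of 13 neutrophil genes, 12263 and 15985 CPM, were also the highest. In RUX pool 4, Mpo, Elane, Prtn3, Ctsg and Cebpe were above their values in untreated pool 2. The other genes of that list, S100a8, S100a9, Ltf, Lcn2, Camp, Ngp, Mmp8 and Retnlg, were below them. The marker lists for neutrophils, monocytes, erythroid, lymphoid, stem and megakaryocyte cells overlapped between the groups. The 10 T and NK genes summed to 29.9 to 41.8 CPM in RUX pools and 43.3 to 48.1 CPM in untreated pools, and the 7 stromal and endothelial genes to 43.8 to 57.1 CPM and 60.6 to 65.5 CPM, both lists without overlap. Single genes carried these sums: Pecam1 averaged 44.1 CPM in RUX pools and 56.0 CPM in untreated pools, Lck 17.8 and 23.5 CPM, and Tcf7 9.84 and 14.3 CPM. Among the genes high enough to test, each list had as many positive as negative log2 fold changes, and 4 genes in each averaged under 1 CPM. The part of these genes in the results was not tested. In bulk RNA, fewer cells of a type and less RNA per cell cannot be told apart.

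RUX and untreated pools differed in no p53 regulator or target by the test used. Among the 31, 0 had a Benjamini-Hochberg adjusted p under 0.05 in edgeR's quasi-likelihood test (background 0.0% of 13411 genes), and 0 had an unadjusted p under 0.05 (background 1.89%, of which 0.85% higher and 1.04% lower with RUX). DESeq2 and limma-voom also gave 0 by both criteria. The adjusted p was 1.00 for every one of them. RUX values lay wholly above untreated values for Zmat3 and wholly below them for Ephx1, so 2 of 31 genes (6.45%) had no overlap, against 6.24% of all tested genes (2.99% with RUX above and 3.25% below). The log2 fold change, RUX over untreated, was negative for 23 (74.2%) and positive for 8, against 50.8% and 49.2% of all tested genes. Its median was −0.10, a fold of 0.935, against −0.0036 over all tested genes. Without untreated pool 1 the split was 15 negative and 16 positive, with a median of 0.026. Without untreated pool 3 and RUX pool 4 it was 20 negative and 11 positive, with a median of −0.12. It was 18 and 13 without untreated pool 2, 19 and 12 without RUX pool 6, and 24 and 7 without RUX pool 5. Of the settings run, the median was above 0 only without untreated pool 1.

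**Figure D1:**
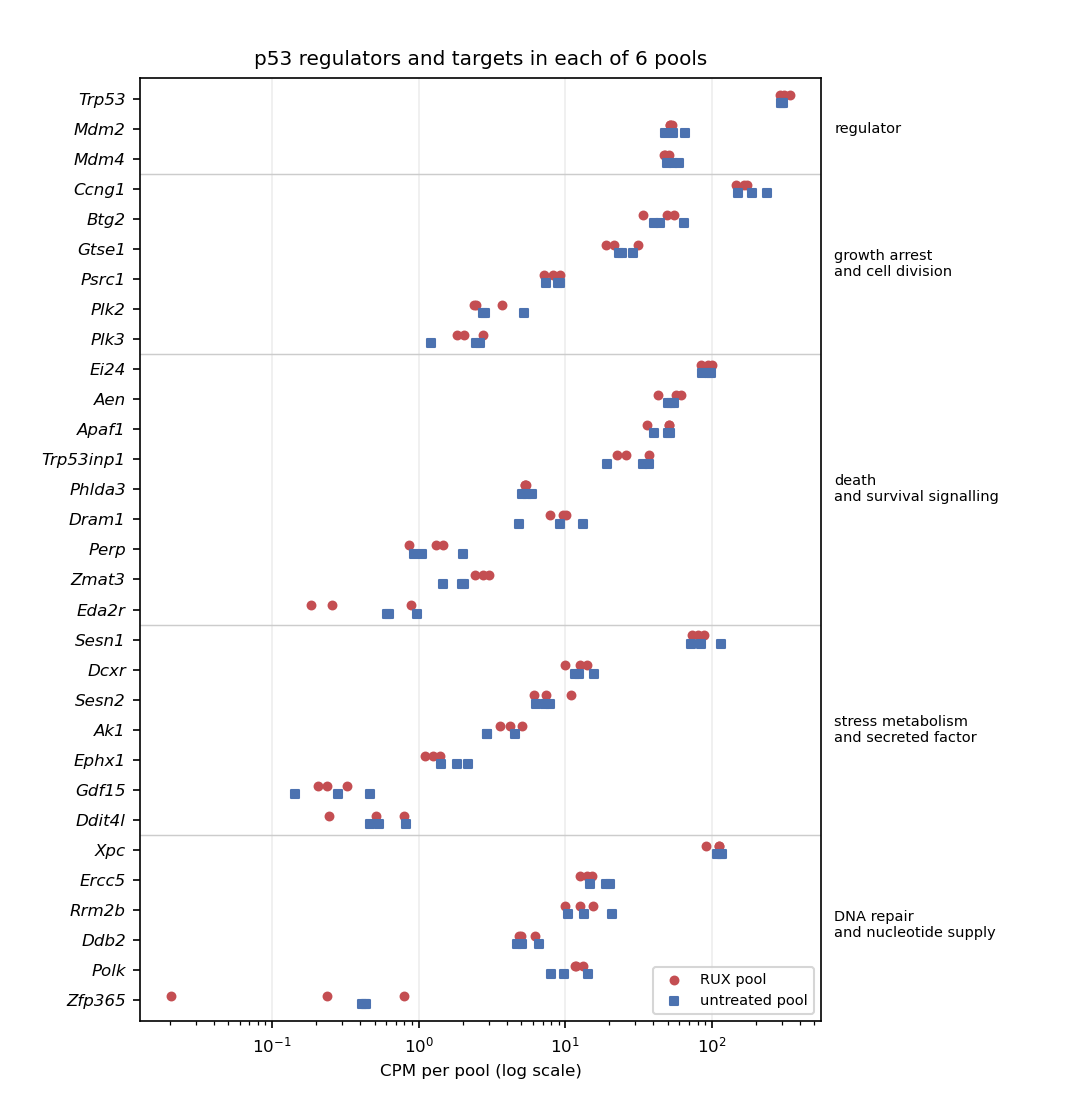
Each row is 1 gene and each point 1 pool, at its CPM on a log axis; circles are the 3 RUX pools and squares the 3 untreated pools, grouped by the role of the gene. The groups separate only for Zmat3 (RUX above) and Ephx1 (RUX below), and Trp53 has the highest values of the 31.

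Per length, Trp53 was the most abundant of the 31 genes. It averaged 169 CPM per kilobase of exon in RUX pools and 161 in untreated pools. Next came Ccng1, at 46.6 and 55.4 CPM per kilobase in RUX and untreated pools, and Ei24, at 40.6 and 40.7. Mdm2 was at 16.9 and 18.1 CPM per kilobase and Mdm4 at 6.63 and 7.44. At the low end, Eda2r (0.0759 and 0.127 CPM per kilobase) and Zfp365 (0.0819 and 0.10) rested on few reads. Zfp365 had 1 to 34 read pairs per pool, Gdf15 4 to 17 and Eda2r 8 to 43.

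Some promoters of these genes hold the sequence unit that p53 reads. RefSeq promoter entries, which run from 250 bases before to 50 after a gene's start in GRCm38.p6 (the assembly of mm10), were matched by symbol for 25 of the 31. The p53 decamer consensus, the 10-base unit that p53 binds as a pair, was searched as an exact match; it reads alike on both strands. It occurred for 9 of 25 members (36.0%) and for 9.55% of all 27025 genes with an entry. By promoter, 10 of 35 entries of the members (28.6%) and 8.36% of all entries held it. Some of these genes are known as p53 targets because p53 binds near them, so the higher share is a description and not independent evidence. A pair of decamers at most 13 bases apart was found in 0 of the 25. Only 0.074% of all 27025 genes with an entry had such a pair, so this count does not set the members apart. A match is a description of letters and not a measured binding site. The 4 stretches below, all upstream of the start that RefSeq gives, show the decamer in capitals for Trp53, for its inhibitor Mdm2 and for the abundant targets Ccng1 and Ei24. It begins 75, 186, 185 and 10 bases before that start in these 4. For Ei24 the gene annotated in the mm10 gene models reaches 36797393 on its 5′ side, so its stretch lies inside that gene model.
Trp53, chr11:69580259-69580318, plus strand: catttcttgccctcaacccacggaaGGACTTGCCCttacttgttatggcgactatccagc
Mdm2, chr10:117710910-117710969, minus strand: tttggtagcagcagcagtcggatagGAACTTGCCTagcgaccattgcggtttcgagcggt
Ccng1, chr11:40755437-40755496, minus strand: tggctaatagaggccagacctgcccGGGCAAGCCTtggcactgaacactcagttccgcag
Ei24, chr9:36797335-36797369, minus strand: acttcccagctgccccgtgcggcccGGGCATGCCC

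The 3 regulators differed little between the groups. Trp53 (chromosome 11, 69580359 to 69591873 in mm10) had 294, 310.2 and 341 CPM in RUX pools 4, 5 and 6 and 298, 300.4 and 306 CPM in untreated pools 1, 2 and 3. The untreated values lay inside the range of the RUX values. Its log2 fold change was 0.064 ± 0.14, with the smallest standard error (SE) of the 31 genes, and the 95% interval of −0.23 to 0.36 corresponds to folds of 0.852 to 1.28.

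Mdm2 (chromosome 10, 117688875 to 117710758), which marks p53 for degradation, had 51.5, 51.9 and 53.6 CPM in RUX pools and 66.1, 54.1 and 47.8 CPM in untreated pools. The RUX pools lay close together between the extremes of the untreated pools. The difference was −0.10 ± 0.15 on the log2 scale (SE; 95% interval −0.43 to 0.23). Mdm4 (chromosome 1, 132986105 to 133030587), which binds p53 and blocks its activation domain, had 50.8, 47.9 and 47.5 CPM in RUX pools and 60.0, 54.3 and 49.8 CPM in untreated pools. The groups overlapped through RUX pool 4 and untreated pool 3. On the log2 scale the difference was −0.17 ± 0.14 (SE; 95% interval −0.47 to 0.14). For all 3 regulators the interval lay within 1.5-fold in either direction.

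Among the 6 genes of growth arrest and cell division, 5 had negative log2 fold changes and 0 passed the test. Ccng1 (chromosome 11, 40748552 to 40755286) encodes cyclin G1, a p53-induced regulator of MDM2. It had 147, 167 and 174 CPM in RUX pools and 239, 189 and 152 CPM in untreated pools. Untreated pools 1 and 2 were above every RUX pool, while untreated pool 3 was among the RUX values. The log2 fold change of −0.25 ± 0.17 (SE) had an unadjusted p of 0.167 and an adjusted p of 1.00 in edgeR. With 1 pool left out it ran from −0.39, with an unadjusted p under 0.05, without untreated pool 3 to −0.070 without untreated pool 1. Without untreated pool 3, 3.96% of all tested genes had such a p.

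Plk2 (chromosome 13, 110395044 to 110400843), a polo-like kinase gene induced by stress, had 2.48, 3.69 and 2.38 CPM in RUX pools and 2.75, 5.22 and 2.83 CPM in untreated pools. Untreated pool 2 was the highest by a wide margin and the groups overlapped. The log2 fold change was −0.34 ± 0.32 (SE). Btg2, an antiproliferative gene, ran from 34.2 to 55.3 CPM in RUX pools and from 40.7 to 64.5 CPM in untreated pools. The kinase gene Plk3 averaged 2.21 ± 0.492 CPM in RUX pools and 2.09 ± 0.765 CPM in untreated pools (mean ± SD, n = 3 each, as in all such values here); exons of an opposite-strand gene cover 3.21% of its exon bases.

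Gtse1 and Psrc1 encode microtubule-associated proteins of dividing cells, and the first also moves p53 out of the nucleus. Gtse1 had 18.9 to 31.4 CPM in RUX pools and 23.3 to 28.8 CPM in untreated pools, and its highest value was in RUX pool 6. The summed level of 25 G2/M genes was also highest in that pool, at 3878 CPM, against 3234 to 3540 CPM in the other 5. The sums of the S-phase genes and of the erythroid markers were highest there too, at 6824 and 8104 CPM. Their part in the Gtse1 values was not tested. Psrc1 had 7.12 to 9.27 CPM in RUX pools and 7.36 to 9.27 CPM in untreated pools. The 25 G2/M and 20 S-phase genes had median log2 fold changes of 0.013 and −0.024, with 0 genes of either list at an unadjusted p under 0.05.

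Of the 9 genes of death and survival signalling, 6 had negative and 3 positive log2 fold changes. Zmat3 (chromosome 3, 32334794 to 32365665), a zinc finger gene whose protein binds RNA and regulates splicing, had the second smallest unadjusted p of the 31. It measured 2.76, 2.44 and 3.01 CPM in RUX pools and 1.96, 2.05 and 1.46 CPM in untreated pools. Every RUX pool was above every untreated pool. The RUX pools differed by a log2 fold change of 0.59 ± 0.30 (SE; 95% interval −0.048 to 1.22), with an unadjusted p of 0.0674 and an adjusted p of 1.00 in edgeR. It stayed positive, at 0.45 to 0.69, with any 1 pool left out. Exons of a gene on the opposite strand cover 2.08% of its exon bases, and counting did not use strand.

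Eda2r (chromosome X, 97333841 to 97377209), a receptor of the TNF receptor family for ectodysplasin A2, had 0.185, 0.882 and 0.258 CPM in RUX pools and 0.607, 0.973 and 0.632 CPM in untreated pools. RUX pool 5 lay among the untreated pools, and the other 2 RUX pools were below them. A log2 fold change of −0.74 ± 0.60 (SE) came with an unadjusted p of 0.242 and an adjusted p of 1.00 in edgeR. With 1 pool left out it ran from −1.72, with an unadjusted p under 0.05, without RUX pool 5 to −0.37 without RUX pool 4. It was −0.46 without RUX pool 6 and −0.47 without untreated pool 2. Without RUX pool 5, 1.32% of all tested genes had an unadjusted p under 0.05. At these counts the interval, −2.03 to 0.56, includes differences of more than 2-fold.

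The better counted genes of this role differed little. Ei24, an endoplasmic reticulum protein gene linked to autophagy, averaged 93.03 ± 7.93 CPM in RUX pools and 93.3 ± 7.05 CPM in untreated pools. Aen, an exonuclease gene of apoptosis, averaged 53.9 ± 9.58 CPM in RUX pools and 52.6 ± 2.33 CPM in untreated pools. Apaf1, the scaffold of the apoptosome, averaged 46.1 ± 8.51 CPM in RUX pools and 47.6 ± 6.55 CPM in untreated pools. The intervals of these 3 lay within 1.5-fold.

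Trp53inp1 and Dram1, which take part in autophagy downstream of p53, varied more between pools of a group. Trp53inp1 had 22.6 to 37.1 CPM in RUX pools and 19.3 to 37.5 CPM in untreated pools. Dram1 had 10.1, 9.64 and 7.85 CPM in RUX pools and 9.25, 4.81 and 13.1 CPM in untreated pools. Its highest value, in untreated pool 3, was 2.73 times its lowest, in untreated pool 2. The 13 neutrophil genes summed to 15985 CPM in untreated pool 3 and 6950 CPM in untreated pool 2, also the highest and the lowest of the 6 pools. Mpo carried much of this sum, at 9240 and 3630 CPM in these 2 pools. Ngp and Ltf were instead highest in untreated pool 2, at 568 and 152 CPM. The summed eosinophil and macrophage markers had the same highest and lowest pools as the neutrophil sum. The part of any of these cells in the Dram1 values was not tested. Phlda3, a repressor of AKT, was nearly level, at 5.38 ± 0.0395 CPM in RUX pools and 5.50 ± 0.424 CPM in untreated pools. Perp, a membrane protein gene of apoptosis and cell adhesion, averaged 1.22 ± 0.324 and 1.33 ± 0.585 CPM in RUX and untreated pools.

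**Figure D2:**
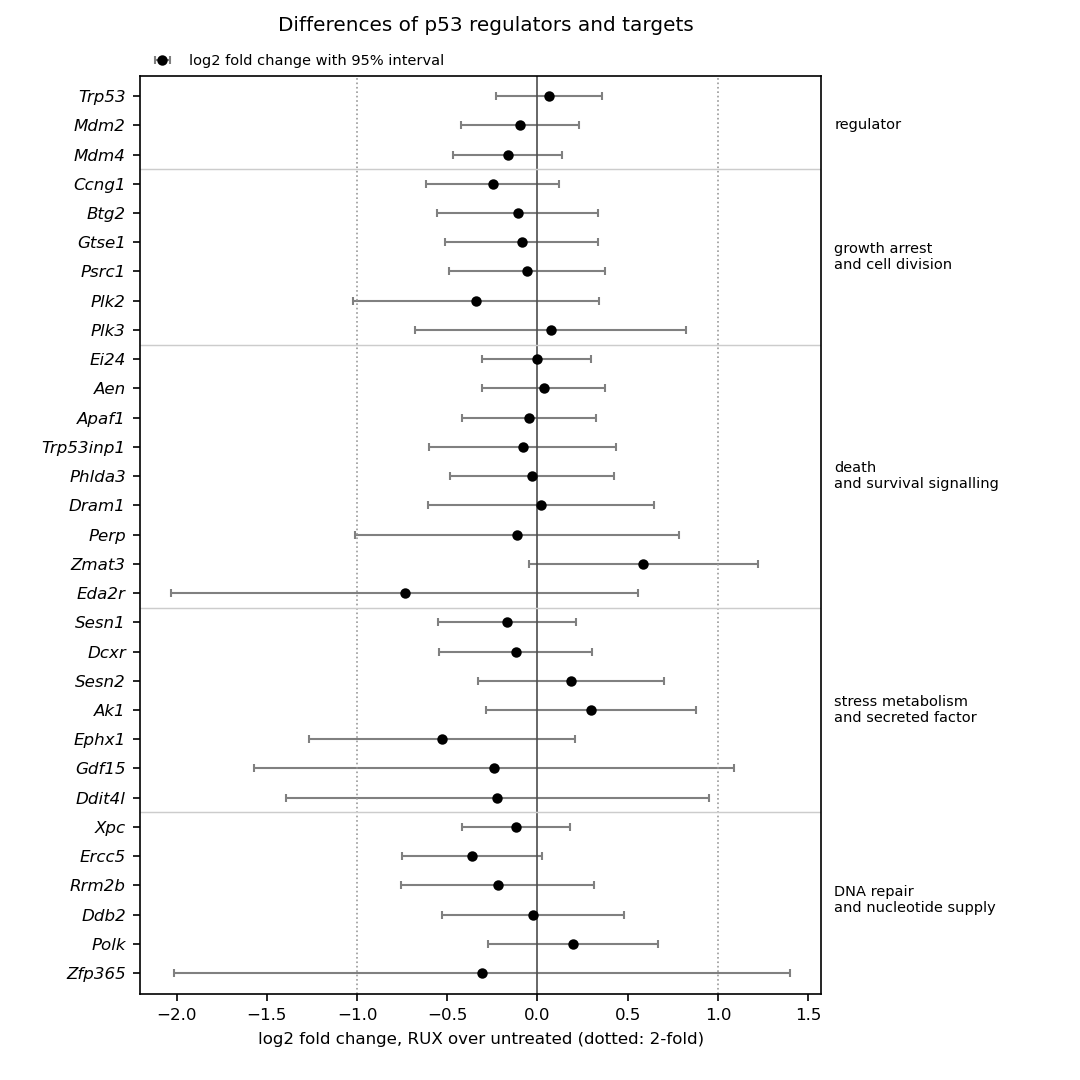
Points give the log2 fold change of each gene, RUX over untreated, from edgeR, and bars its 95% interval; dotted lines mark 2-fold. Every interval includes 0, and the widest belong to the genes with the fewest reads, such as Zfp365 (−2.01 to 1.40) and Eda2r (−2.03 to 0.56).

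Of the 7 genes of stress metabolism and secreted signals, 5 had negative log2 fold changes. Ephx1 (chromosome 1, 180989556 to 181017495), the microsomal epoxide hydrolase gene, had 1.25, 1.39 and 1.11 CPM in RUX pools and 1.43, 1.82 and 2.17 CPM in untreated pools. Every RUX pool was below every untreated pool, though RUX pool 5 and untreated pool 1 nearly met. The log2 fold change was −0.53 ± 0.34 (SE; 95% interval −1.27 to 0.21), with an unadjusted p of 0.145 and an adjusted p of 1.00 in edgeR.

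Sesn1 and Sesn2 encode sestrins, stress-induced inhibitors of mTORC1 signalling. Sesn1 (chromosome 10, 41810574 to 41908436) had 73.4, 89.1 and 80.8 CPM in RUX pools and 116, 85.1 and 72.2 CPM in untreated pools. Untreated pool 1 alone was above the RUX values. This gave a log2 fold change of −0.17 ± 0.18 (SE). Sesn2 averaged 8.14 ± 2.501 CPM in RUX pools and 7.15 ± 0.798 CPM in untreated pools, with its highest value, 10.9 CPM, in RUX pool 6.

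Ak1 (chromosome 2, 32621758 to 32635058), an adenylate kinase gene, had 3.57, 4.18 and 5.04 CPM in RUX pools and 2.93, 4.56 and 2.91 CPM in untreated pools. RUX pools were above untreated pools 1 and 3 but not all above untreated pool 2. The estimate was 0.30 ± 0.27 on the log2 scale (SE). Dcxr, a carbonyl and xylulose reductase gene, had 9.996 to 14.04 CPM in RUX pools and 11.8 to 15.8 CPM in untreated pools. The stress cytokine gene Gdf15 averaged 0.256 ± 0.0616 CPM in RUX pools and 0.297 ± 0.163 CPM in untreated pools, and Ddit4l, an mTOR inhibitor gene, 0.516 ± 0.274 and 0.609 ± 0.188 CPM. At these depths a 2-fold difference of Gdf15 or Ddit4l in some direction was inside the interval.

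Of the 6 genes of DNA repair and nucleotide supply, 5 had negative log2 fold changes. Ercc5 (chromosome 1, 44147744 to 44181260), the XPG endonuclease of nucleotide excision repair, had the smallest unadjusted p of the 31. It measured 13.99, 12.7 and 15.3 CPM in RUX pools and 14.8, 18.8 and 20.3 CPM in untreated pools. Untreated pools 2 and 3 were above every RUX pool, and untreated pool 1 lay below RUX pool 6. The log2 fold change was −0.36 ± 0.18 (SE; 95% interval −0.75 to 0.024), with an unadjusted p of 0.0638 and an adjusted p of 1.00 in edgeR. It stayed negative, at −0.48 to −0.27, with any 1 pool left out. The unadjusted p was under 0.05 without untreated pool 1 and in limma-voom with quality weights. Those settings gave such a p for 1.88% and 5.80% of all tested genes.

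The damage sensors of the same repair route were closer between groups. Xpc, which recognises distorted DNA, averaged 105 ± 11.2 CPM in RUX pools and 114 ± 4.196 CPM in untreated pools. Ddb2, which detects ultraviolet damage, averaged 5.36 ± 0.780 CPM in RUX pools and 5.46 ± 1.05 CPM in untreated pools. Exons of Acp2 on the opposite strand cover 33.5% of the exon bases of Ddb2, and counting without strand cannot tell the 2 genes' reads apart there.

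Polk (chromosome 13, 96480689 to 96542485), a polymerase gene of translesion synthesis, had 11.9, 11.7 and 13.1 CPM in RUX pools and 9.86, 14.2 and 7.94 CPM in untreated pools. The RUX pools lay inside the untreated range. Its log2 fold change was 0.20 ± 0.22 (SE). With 1 pool left out it ran from 0.021 without untreated pool 3 to 0.47, with an unadjusted p under 0.05, without untreated pool 2. Without untreated pool 2, 4.84% of all tested genes had such a p. Rrm2b, the p53-inducible subunit of ribonucleotide reductase, had 10.03 to 15.5 CPM in RUX pools and 10.4 to 20.7 CPM in untreated pools. Zfp365, a zinc finger gene linked to genome stability, had 0.788, 0.0205 and 0.238 CPM in RUX pools and 0.429, 0.410 and 0.439 CPM in untreated pools, and its direction changed with the pool left out.

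The extreme values of the list were spread unevenly over the pools. Untreated pool 1 had the highest value of the 6 pools for 11 of the 31 genes (35.5%), against 19.9% of all tested genes. These 11, named after their values were seen, were Ccng1, Ddb2, Ddit4l, Mdm2, Mdm4, Perp, Phlda3, Rrm2b, Sesn1, Trp53inp1 and Xpc. They came from every role used here, with Ccng1 the only gene of growth arrest and cell division. RUX pool 6 had the highest value for 7 genes (22.6%, against 16.8% of all tested genes), Trp53 among them. RUX pool 4 had the lowest value for 9 genes (29.0%, against 19.6% of all tested genes), RUX pool 6 for 8 (25.8%, against 17.5%) and untreated pool 3 for 7 (22.6%, against 21.6%).

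The median deviation of the 31 genes from their means on the log2(CPM + 1) scale was −0.071, 0.021 and −0.040 in RUX pools 4, 5 and 6. In untreated pools 1, 2 and 3 it was 0.041, 0.032 and −0.066. The 2 lowest medians were thus in RUX pool 4 and untreated pool 3, 1 from each group. These pools had the highest eosinophil and neutrophil sums and the lowest Kit values. Not every gene followed the neutrophil sum: S100a8, Ngp and Ltf were lower in RUX pool 4 than in untreated pool 2, while Mpo and Elane were higher. Over all tested genes the medians ran from −0.0090 to 0.0053. Untreated pool 1 was also the shallowest library. The part of eosinophil RNA, neutrophil RNA, Kit level or depth in these values was not tested.

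**Figure D3:**
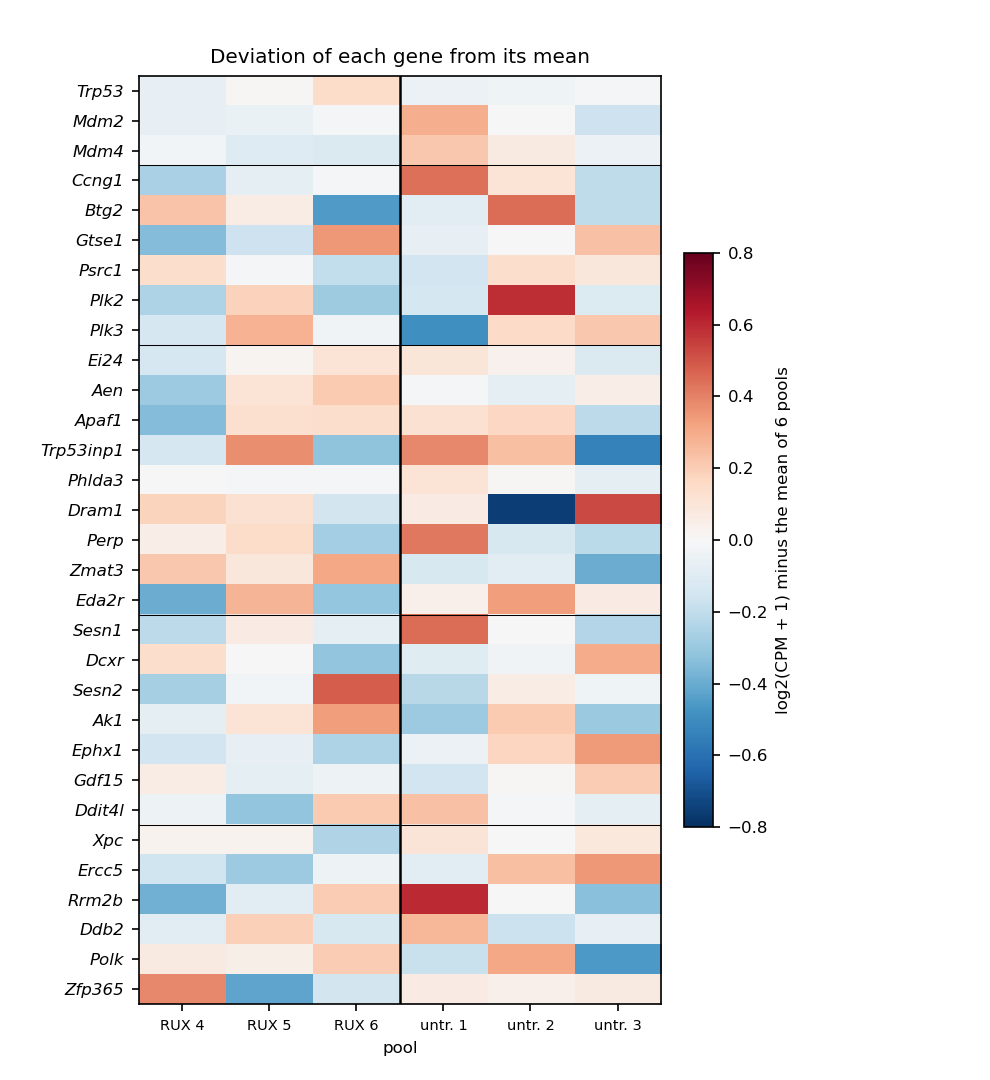
Colours give log2(CPM + 1) of each gene in each pool minus its mean over the 6 pools, with the 3 RUX pools left of the black line and the 3 untreated pools right of it. Mdm2, Ccng1, Sesn1 and Rrm2b are highest in untreated pool 1, and no pool column is of 1 colour throughout.

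The data bounded the size of a difference for most of these genes. The 95% interval lay within 1.5-fold in either direction for 14 of the 31 (45.2%, against 56.8% of all tested genes) and within 2-fold for 23 (74.2%, against 80.9%). The 8 genes whose interval reached past 2-fold were Plk2, Eda2r, Zmat3, Perp, Ddit4l, Gdf15, Ephx1 and Zfp365, each at or below 3.60 CPM in both group means.

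No gene of 2 wider pathway lists passed the test either. Of 32 listed kinases, ligases and other modifiers of p53, 28 were tested and 0 passed. At an unadjusted p under 0.05 in edgeR there were 0, against 1.89% of all tested genes. Of the 28 log2 fold changes, 17 were positive and 11 negative, against 49.2% and 50.8% of all tested genes. The median was 0.037. The 4 with the smallest unadjusted p began with Ep300 and Crebbp, the related acetyltransferase genes whose proteins act on p53. Ep300 had 50.4, 46.8 and 48.5 CPM in RUX pools and 38.2, 46.9 and 28.9 CPM in untreated pools, a log2 fold change of 0.35 ± 0.18 (SE). Crebbp had 52.2, 47.1 and 50.1 CPM in RUX pools and 38.0, 47.5 and 37.3 CPM in untreated pools, a log2 fold change of 0.28 ± 0.15 (SE). In both, untreated pool 2 lay among the RUX values and the other untreated pools were below them. Rchy1, another ubiquitin ligase gene for p53, averaged 65.3 ± 2.40 CPM in RUX pools and 74.2 ± 4.21 CPM in untreated pools without overlap. It was the 1 of the 28 without overlap (3.57%, against 6.24% of all tested genes). Bmi1, a Polycomb gene that represses the Cdkn2a locus, averaged 72.4 ± 3.04 CPM in RUX pools and 83.8 ± 16.3 CPM in untreated pools.

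Of 57 further p53 targets, 52 were tested, 0 passed and 1 had an unadjusted p under 0.05 (1.89% of all tested genes did). Their log2 fold changes divided into 26 positive and 26 negative; the median was −0.0018. Pmm1, a phosphomannomutase gene, was that gene, at 30.6, 29.6 and 34.7 CPM in RUX pools and 20.6, 26.9 and 25.2 CPM in untreated pools, without overlap. Its log2 fold change was 0.38 ± 0.16 (SE), with an unadjusted p of 0.0332 and an adjusted p of 1.00 in edgeR. Blcap, a gene linked to apoptosis, averaged 31.5 ± 2.74 CPM in RUX pools and 25.5 ± 1.53 CPM in untreated pools, also without overlap. Hexim1, an inhibitor of the elongation kinase P-TEFb, averaged 12.3 ± 4.75 CPM in RUX pools and 8.53 ± 1.66 CPM in untreated pools. Sfn, the 14-3-3 sigma gene, averaged 1.699 ± 0.515 CPM in RUX pools and 1.11 ± 0.208 CPM in untreated pools without overlap. Without overlap were 3 of the 52 (5.77%), all with RUX above, close to the 6.24% of all tested genes.

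**Figure D4:**
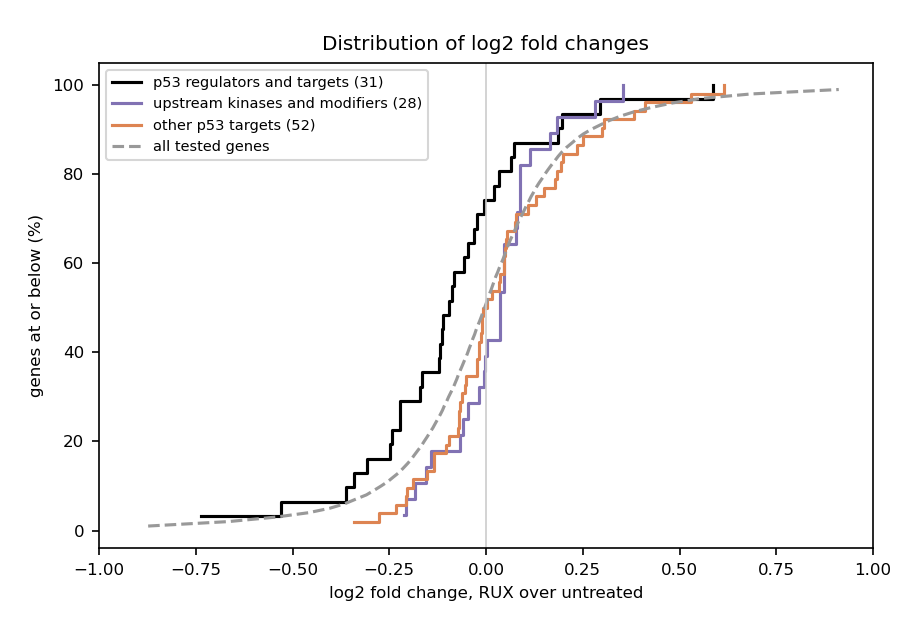
Lines give the share of genes at or below each log2 fold change, RUX over untreated, for the 31 p53 regulators and targets, the 28 upstream genes, the 52 other targets and all tested genes (dashed). At 0, the line of the 31 genes has passed 23 of them, and that of the other targets 26 of 52.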

How the data were processed

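The labels' protocols name a SMART-Seq mRNA kit, and the submitters' processing notes name STAR and mm10. Per the file headers, the authors' featureCounts 2.0.3 run gave raw counts: whole read pairs on the exons of a gene in a UCSC mm10 annotation, with no strand option. The exon length in the deposited table served to set levels of different genes side by side. Libraries were matched to pools by name. The labels name no batch. The p-values set the difference between groups against the spread between pools, not between single mice.

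From the counts, edgeR 4.0.16 (R 4.3.3) filtered genes with filterByExpr, scaled libraries by TMM and applied the two-sided quasi-likelihood test with treatment as the only term. P-values were adjusted by Benjamini-Hochberg over all 13411 genes at 0.05. CPM are on the TMM-scaled library. SE were derived by dividing each log2 fold change by the square root of F. DESeq2 1.42.0 and limma 3.58.1 served as alternatives. The pipeline was tested on simulated data. Counts are PCR-amplified reads, so depth limits precision for the genes with the fewest reads.

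The 31 genes and all lists were chosen with earlier results of these data known. Per-pool values are given for Trp53, Mdm2, Mdm4, genes without overlap and the 10 with the smallest unadjusted p; of the other pathway lists, the 4 genes with the smallest p and at least 1 CPM in the higher group are named. One listed modifier was not found by symbol. Promoter sequences are from RefSeq (GRCm38.p6).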

Additional observations from a re-analysis of the deposited data

How the results depend on the processing

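No paired analysis was possible because the groups share no pool numbers. Over the 15 alternative settings, 0 of the 31 genes were called in any of them. Over all tested genes, 14 were called without the low-count filter and 1 in limma-voom with quality weights. At an unadjusted p under 0.05 the 31 genes gave 2 in limma-voom with quality weights (Ercc5 and Zfp365, where 5.80% of all genes did so). With 1 pool left out they gave 0 to 1, where 1.32 to 4.84% of all genes did so. Genes without overlap were 3 to 6 with 1 pool left out, where 11.1 to 20.8% of all tested genes had none, and 9 (29.0%, against 32.4%) without untreated pool 3 and RUX pool 4, a setting added after the data had been seen; DESeq2 and limma-voom give no such count. The median log2 fold change ran from −0.12 to 0.026 with 1 pool left out. The upstream list gave 1 gene at an unadjusted p under 0.05 without the filter (3.15% of all genes did so), 1 without untreated pool 3 and RUX pool 4 (3.73%), and 0 to 3 with 1 pool left out (1.32 to 4.84%). The other targets gave 2 without the filter (3.15% of all genes), 2 in DESeq2 (2.10%) and 3 in limma-voom with quality weights (5.80%). They gave 0 to 4 with 1 pool left out (1.32 to 4.84%). Over all settings 10 of the 31 genes kept their sign and 21 did not; the cause was not tested.

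The log2 fold change of Ei24 became 0.0053 with DESeq2 size factors, 0.0033 with upper-quartile factors, 0.0035 without the filter, 0.0053 in DESeq2 and 0.0043 without untreated pool 3 and RUX pool 4, the setting that also gave 0.16 for Gtse1 and 0.029 for Gdf15. In limma-voom with quality weights it was 0.062 for Trp53inp1, 0.0050 for Apaf1 and 0.081 for Ddb2. With 1 pool left out, genes whose sign changed ranged from −0.20 to 0.038 (Mdm2), −0.25 to 0.13 (Btg2), −0.33 to 0.063 (Gtse1), −0.15 to 0.036 (Psrc1), −0.57 to 0.040 (Plk2), −0.19 to 0.26 (Plk3), −0.32 to 0.10 (Trp53inp1), −0.084 to 0.026 (Phlda3), −0.069 to 0.18 (Aen), −0.063 to 0.067 (Ei24), −0.31 to 0.29 (Perp), −0.16 to 0.11 (Apaf1), −0.28 to 0.39 (Dram1), −0.31 to 0.044 (Sesn1), −0.085 to 0.36 (Sesn2), −0.68 to 0.11 (Ddit4l), −0.55 to 0.23 (Gdf15), −0.22 to 0.020 (Dcxr), −0.42 to 0.093 (Rrm2b), −0.15 to 0.14 (Ddb2) and −1.68 to 0.26 (Zfp365). At fewer than 50 read pairs per pool (Zfp365, Gdf15, Eda2r and Ddit4l) depth limits these values.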

Other observations

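Several pathway genes were too low to test. Of the upstream list, Cdkn2a, whose ARF product inhibits MDM2, had 5, 0 and 0 read pairs in RUX pools and 0, 0 and 3 in untreated pools. The p53 relatives Trp63 and Trp73 had 0 to 1 and 1 to 7 read pairs in RUX pools and 0 and 0 to 7 in untreated pools. Of the other targets, the costimulatory ligand gene Cd80 had 10, 9 and 9 read pairs in RUX pools and 0, 0 and 4 in untreated pools, without overlap. The cytokine gene Lif had 6, 18 and 25 read pairs in RUX pools and 6 in each untreated pool. Pltp and Sco2 stayed at or below 13 read pairs in every pool. The untreated libraries were the shallower ones.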
